A study of Mus musculus with 10 samples.

Results

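The genes described here are 40 components of the machinery that brings new proteins into the endoplasmic reticulum (ER) and folds them there, taken as a named list and found by gene symbol among 17919 genes. They fall into 8 role groups: the signal recognition particle with its receptor, the Sec61 translocon with its partners, the translocon-associated protein complex, signal peptidase, oligosaccharyltransferase, the lectin chaperones, the Hsp70 and Hsp90 chaperones with their cofactors, and the protein disulfide isomerases. All were measured in 6 libraries of neural stem cells grown from ICR mouse ventral midbrain at embryonic day 10, all of which carried a lentivirus. RNA-seq covered Lin28a overexpression and mock control at passage 3 (P3), and Lin28a overexpression and mock control at passage 1 (P1), and polysome-seq, the sequencing of RNA from a sucrose gradient that separates messages by their ribosome load, covered Lin28a overexpression and mock control at P3. Both cultures were passaged every 4 days. Which gradient fractions entered the polysome libraries is not stated, so how many ribosomes a message needed to be counted there is unknown, for every polysome value and polysome to RNA ratio below. The sources used here give neither the promoter of the lentivirus nor the number of embryos behind a culture. With 1 library per group there was no replicate check and no test, and every ratio describes these libraries.

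Proteins bound for secretion or for membranes are recognised by the signal recognition particle as they leave the ribosome and are passed to its receptor on the ER. They enter through the Sec61 channel, lose their signal peptide and gain N-linked sugars, and are folded by chaperones and disulfide isomerases in the ER lumen. When unfolded proteins build up in the lumen, the unfolded protein response raises many of the chaperone genes through the ER stress element (ERSE) of their promoters. Lin28a binds RNA and is abundant in early embryos. It was reported in mouse embryonic stem cells to bind messages of ER-targeted proteins and to lower their translation. The polysome libraries at P3 give the polysome levels of such genes in cultures grown from ventral midbrain. They hold no measure of Lin28a binding, and an effect of Lin28a on translation was not tested.

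The overexpressed transcript followed the labels. Lin28a was at 104 FPKM in P3 Lin28a and 0.0620 FPKM in P3 control, and at 478 FPKM in P1 Lin28a and 0.128 FPKM in P1 control (FPKM, a level per length of the gene and per fragments sequenced). The 8 neural stem cell markers, Nes and Sox2 among them, were at 1 or more in all 6 libraries. The cultures also held glial and neuronal RNA that moved with the groups. The summed level of 10 astrocyte markers was 2324 FPKM in P3 Lin28a and 5106 FPKM in P3 control, and 301 FPKM in P1 Lin28a and 392 FPKM in P1 control. For 12 oligodendrocyte lineage markers the sums in the same order of libraries were 1401, 2304, 114 and 189 FPKM, and for 10 neuron markers they were 393, 199, 788 and 902 FPKM. No marker on these 3 lists was listed at the RNA-seq floor. The sums of 10 ventral midbrain and floor plate markers, in the same order of libraries, were 117, 70.3, 305 and 302 FPKM. All 10 were lower at P3 than at P1 in both cultures, and all 10 were higher in P3 Lin28a than in P3 control. Of 8 microglia and macrophage markers only Cd68 reached 1 in any RNA-seq library, and C1qa and C1qb were listed at the floor in both P3 libraries. These are bulk values, so fewer cells of a type and less RNA per cell cannot be told apart, and the part of the cell makeup in the results below was not tested.

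Most of the ER genes were among the more abundant messages. All 40 were at 1 or more in all 6 libraries, and among the genes at that level 36 of them lay at or above percentile 75 of P3 Lin28a RNA and 37 at or above percentile 75 of each of the other 3 RNA-seq libraries. In the polysome libraries 30 of 40 did so in Lin28a and 29 of 40 in control, and 3 in Lin28a and 2 in control lay below the median. The lectin chaperone Calr had the highest level of the 40 in every RNA-seq library, with 329 FPKM in P3 Lin28a, 443 FPKM in P3 control, 367 FPKM in P1 Lin28a and 377 FPKM in P1 control. The lowest was Sdf2l1, a cofactor of the ER Hsp70 system, with 5.53 FPKM in P3 Lin28a, 8.71 FPKM in P3 control, 11.9 FPKM in P1 Lin28a and 11.4 FPKM in P1 control, below the median of the genes at 1 or more in all 4. The median of the 40 was 65.6 FPKM in P3 Lin28a, 75.8 FPKM in P3 control, 63.0 FPKM in P1 Lin28a and 65.7 FPKM in P1 control, where the genes at 1 or more had medians between 12.9 and 13.2 FPKM.

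**Figure D1:**
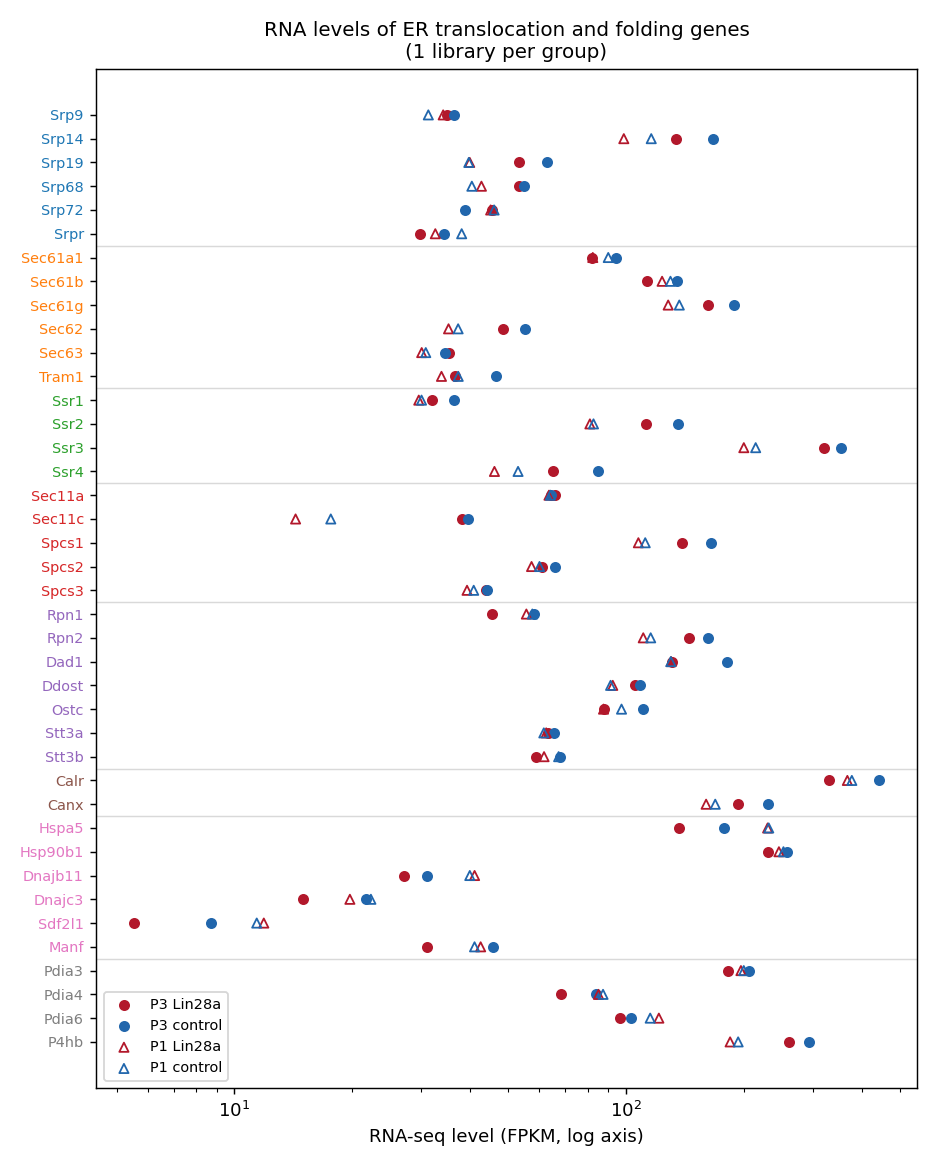
RNA-seq levels of the 40 genes in FPKM on a log axis, 1 point per library, with filled circles for P3, open triangles for P1, red for Lin28a and blue for control, and gene names coloured by role group. In the lower part of the plot the P3 Lin28a points of Hspa5, Dnajb11, Dnajc3, Sdf2l1 and Manf lie left of the other 3 libraries.

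Ratios below are log2 ratios after 1 was added to each value. A gene is counted as higher or lower past 1.5-fold, a log2 ratio beyond 0.58 either way, and a count of all differences above or below 0 is given as by any amount. A gene entered a comparison of libraries where it was at 1 or more in at least 1 of them.

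With passage the ER genes, like all genes, spread more widely than in the other comparisons. Their interquartile range of log2 ratios was 0.47 in Lin28a and 0.46 in control, against at most 0.28 elsewhere. All genes spread more than the ER genes, with ranges of 0.79 in Lin28a and 0.98 in control. For Lin28a over control in RNA the ranges of all genes were 0.25 at P1 and 0.45 at P3. The passage medians of the role groups lay on both sides of 0. In the Lin28a culture 2 of 40 genes were higher past 1.5-fold at P3 and 2 were lower, where 18.2% of the 12850 genes were higher and 14.8% were lower. By any amount 25 of 40 were higher (49.0% of all genes), with a median of 0.04 against -0.01 for all genes. In the control culture 6 of 40 were higher past 1.5-fold and 0 were lower, where 22.6% of 13011 genes were higher and 19.8% lower, and 32 of 40 were higher by any amount (49.7% of all genes) with a median of 0.17 against 0.00. The genes past 1.5-fold were Sec11c and Ssr3 (higher) and Sdf2l1 and Hspa5 (lower) in Lin28a, and Sec11c, Ssr3, Ssr2, Ssr4, Srp19 and P4hb (higher) in control. The shares of called ER genes were thus below those of all genes in both cultures. Most of the 40 were at higher levels than most genes, and neither the shares nor the ranges were computed among genes of like level. With each library scaled by its upper quartile, which shifts the median of all genes in the control culture to -0.10, the counts by any amount were 20 of 40 in Lin28a and 24 of 40 in control, and 3 genes were higher past 1.5-fold in control.

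The largest passage difference among the 40 was in signal peptidase, the enzyme that cuts off signal peptides. Its catalytic subunit Sec11c (NM_025468) was at 38.0 FPKM in P3 Lin28a, 39.4 FPKM in P3 control, 14.3 FPKM in P1 Lin28a and 17.6 FPKM in P1 control. Both P3 libraries were thus above both P1 libraries, with log2 ratios of P3 over P1 of 1.35 in Lin28a and 1.12 in control. With 1 added to each value, these were the only passage ratios of the 40 past 2-fold. Of all genes 8.38% were higher past 2-fold in Lin28a and 11.5% in control. Sdf2l1, at 5.53 FPKM in P3 Lin28a and 11.9 FPKM in P1 Lin28a, had -0.98 and fell short of 2-fold only through the added 1. The other catalytic subunit, Sec11a (NM_019951), lay close to 1 level in all of them, at 66.0 FPKM in P3 Lin28a, 64.2 FPKM in P3 control, 63.5 FPKM in P1 Lin28a and 64.1 FPKM in P1 control. The accessory subunit Spcs1 (NM_026911) was at 138 FPKM in P3 Lin28a, 165 FPKM in P3 control, 107 FPKM in P1 Lin28a and 112 FPKM in P1 control. The ratios of Spcs1 were 0.36 in Lin28a and 0.56 in control, and those of Spcs2 and Spcs3 lay between 0.09 and 0.16 in both cultures.

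The translocon-associated protein complex, which sits beside the Sec61 channel, was higher at P3 for all 4 subunits in both cultures by any amount, with medians of 0.48 in Lin28a and 0.69 in control, and for all 4 with upper quartile scaling too. Ssr3 (NM_026155) was at 321 FPKM in P3 Lin28a, 353 FPKM in P3 control, 199.8 FPKM in P1 Lin28a and 214 FPKM in P1 control, with ratios of 0.68 in Lin28a and 0.72 in control. Ssr2 (NM_025448) was at 112 FPKM in P3 Lin28a, 136 FPKM in P3 control, 80.8 FPKM in P1 Lin28a and 82.5 FPKM in P1 control. For both genes each P3 library lay above each P1 library. Ssr4 had ratios of 0.49 in Lin28a and 0.67 in control, and Ssr1 had 0.11 and 0.27.

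The Sec61 channel itself differed less. Its pore subunit Sec61a1 had ratios of P3 over P1 of -0.01 in Lin28a and 0.06 in control, and the small subunit Sec61b had -0.13 and 0.05. The third subunit, Sec61g (NM_001109972), was at 162 FPKM in P3 Lin28a, 189 FPKM in P3 control, 128 FPKM in P1 Lin28a and 137 FPKM in P1 control, with ratios of 0.33 and 0.46. Among the partners of the channel, Sec62 had 0.45 and 0.55, its companion Sec63 (35.2 FPKM in P3 Lin28a, 34.4 FPKM in P3 control, 30.1 FPKM in P1 Lin28a and 30.8 FPKM in P1 control) had 0.22 and 0.16, and the membrane protein Tram1, which contacts entering chains, had 0.11 and 0.31. By any amount 4 of 6 genes of this group were higher at P3 in Lin28a and 6 of 6 in control, or 4 of 6 in each with upper quartile scaling.

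The signal recognition particle was mixed. Srp14 (NM_009273), which with Srp9 forms the part that slows the ribosome, was at 134 FPKM in P3 Lin28a, 167 FPKM in P3 control, 98.7 FPKM in P1 Lin28a and 116 FPKM in P1 control. Srp19 (NM_025527), an assembly subunit, was at 53.3 FPKM in P3 Lin28a, 62.9 FPKM in P3 control, 39.9 FPKM in P1 Lin28a and 39.7 FPKM in P1 control. In both genes the P3 libraries were above the P1 libraries, with ratios in Lin28a and control of 0.44 and 0.52 for Srp14 and of 0.41 and 0.65 for Srp19. Srp72 (NM_025691), which pairs with Srp68 in the particle, went its own way, at 45.3 FPKM in P3 Lin28a, 38.7 FPKM in P3 control, 45.1 FPKM in P1 Lin28a and 46.0 FPKM in P1 control. Only its P3 control value stood apart, as the lowest, which gives ratios of 0.01 in Lin28a and -0.24 in control. Srp68 (NM_146032) was at 53.1 FPKM in P3 Lin28a, 55.0 FPKM in P3 control, 42.7 FPKM in P1 Lin28a and 40.4 FPKM in P1 control, with ratios of 0.31 and 0.44. Srp9 had 0.03 and 0.21, and the receptor gene Srpr had -0.13 and -0.15.

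Oligosaccharyltransferase, which adds N-linked sugars to entering chains, was higher at P3 by any amount for 5 of 7 genes in Lin28a (median 0.01) and for 7 of 7 in control (median 0.18), or for 2 and 4 of 7 with upper quartile scaling. Rpn2 (NM_019642) was at 144 FPKM in P3 Lin28a, 162 FPKM in P3 control, 111 FPKM in P1 Lin28a and 116 FPKM in P1 control, so that both P3 values exceeded both P1 values. Dad1 (NM_001113358) was at 131 FPKM in P3 Lin28a, 181 FPKM in P3 control, 130.3 FPKM in P1 Lin28a and 130.1 FPKM in P1 control. For Dad1 the P3 control library alone was high and the other 3 lay together. Ddost had passage ratios of 0.18 in Lin28a and 0.24 in control and Ostc had 0.00 and 0.18, while Rpn1 had -0.28 and 0.01. The 2 catalytic subunits lay near 0 in both cultures, with Stt3a at 0.01 and 0.08 and Stt3b at -0.07 and 0.01.

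Promoters are shown here for the folding genes, because the ER stress element is the best known control sequence that many of them share. RefSeq promoter windows of build GRCm38.p6, from 250 bases before to 50 after the start site, were matched by symbol for 31 of the 40 genes, and the deposited tables themselves use mm9. Windows were not matched for Srp19, Srp68, Sec61a1, Tram1, Ssr2, Sec11c, Spcs3, Ostc and Manf. The element was searched on both strands as CCAAT, 9 bases of any kind and CCACG. It was found in 6 of the 31 genes, or 19.4%, and in 0.137% of all 27025 genes with a window, and the 6 were Hspa5, Hsp90b1, Dnajc3, Calr, Canx and Pdia6. Each line gives 59 bases on the gene's strand, with the element in capitals.
Hspa5: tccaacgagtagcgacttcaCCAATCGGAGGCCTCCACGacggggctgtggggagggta
Hsp90b1 distal: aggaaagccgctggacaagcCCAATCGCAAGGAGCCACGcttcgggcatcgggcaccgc
Hsp90b1 proximal: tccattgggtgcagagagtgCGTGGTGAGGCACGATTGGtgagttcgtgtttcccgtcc
Dnajc3: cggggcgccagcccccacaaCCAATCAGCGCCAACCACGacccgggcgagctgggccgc
Calr: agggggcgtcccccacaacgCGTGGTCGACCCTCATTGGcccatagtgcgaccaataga
Canx: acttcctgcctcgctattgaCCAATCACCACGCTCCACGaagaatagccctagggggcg
Pdia6: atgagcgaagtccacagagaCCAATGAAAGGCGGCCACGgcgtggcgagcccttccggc
The windows lie at chr2:34772005-34772063 on the plus strand (Hspa5), chr10:86705618-86705676 and chr10:86705513-86705571 on the minus strand (Hsp90b1), chr14:118937807-118937865 on the plus strand (Dnajc3), chr8:84847055-84847113 on the minus strand (Calr), chr11:50325780-50325838 on the minus strand (Canx) and chr12:17266471-17266529 on the plus strand (Pdia6).

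In Calr and in the proximal Hsp90b1 window the element reads on the opposite strand of the gene, so its CCACG end appears as CGTGG. The first base of the element lay between 65 bases before the start site in Hspa5 and 212 bases before it in Hsp90b1. A related element, searched as ATTGG, 1 base of any kind and CCACG on both strands, was found in the window of Dnajb11 among the 31 genes and in 12 of all 27025 genes. The letters TGACGTGG, another unfolded protein response element, whose reverse complement begins with the same CCACG, were in 0 of the 31 genes and in 0.714% of all genes. These matches describe letters in the windows alone. For the 6 genes with the first element the median log2 ratio of Lin28a over control in P3 RNA was -0.32, and for the 25 matched genes without it the median was -0.18. In P1 RNA these medians were -0.04 and -0.05. Their medians of P3 over P1 were -0.24 and 0.05 in Lin28a, and 0.00 and 0.16 in control. All 6 genes with the element are folding genes, and most of the 25 without it are translocation or modification genes. Element and role thus cannot be told apart in these medians, and the difference was not tested. The lowest ratio in P3 RNA, -0.57, was that of Sdf2l1, whose window held no match to the element, and Manf had no window. The 25 genes without the first element include Dnajb11, which had the related one. Copies of the element outside the windows or with other letters were not searched for.

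For each of the 6 Hsp70 and Hsp90 chaperones and cofactors P3 Lin28a was the lowest of the 4 RNA-seq libraries. Hspa5 (NM_001163434), the ER Hsp70 also called BiP, was at 136 FPKM in P3 Lin28a, 178 FPKM in P3 control, 229.8 FPKM in P1 Lin28a and 231 FPKM in P1 control. Both P1 libraries were alike and both P3 libraries were lower, with P3 Lin28a the lowest, and the ratios of P3 over P1 were -0.75 in Lin28a and -0.38 in control. Sdf2l1 (NM_022324), at the levels given above, had ratios of -0.98 in Lin28a and -0.35 in control. Dnajb11 (NM_001190805), the Hsp40 partner of Hspa5, was at 27.0 FPKM in P3 Lin28a, 31.1 FPKM in P3 control, 41.0 FPKM in P1 Lin28a and 39.9 FPKM in P1 control, with ratios of -0.58 and -0.35. For these 3 genes each P3 library was below each P1 library, and only Hspa5 and Sdf2l1 in the Lin28a culture were lower past 1.5-fold.

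Manf and Dnajc3 were low in P3 Lin28a alone. Manf (NM_029103), a small luminal and secreted protein that binds Hspa5, was at 31.1 FPKM in P3 Lin28a, 45.6 FPKM in P3 control, 42.5 FPKM in P1 Lin28a and 41.0 FPKM in P1 control. Its ratios of P3 over P1 pointed opposite ways, -0.44 in Lin28a and 0.15 in control. Dnajc3 (NM_008929), another Hsp40 cofactor, was at 15.0 FPKM in P3 Lin28a, 21.7 FPKM in P3 control, 19.7 FPKM in P1 Lin28a and 22.3 FPKM in P1 control, with ratios of -0.37 and -0.04. Hsp90b1 (NM_011631), the ER Hsp90, differed little, at 230.0 FPKM in P3 Lin28a, 258 FPKM in P3 control, 246 FPKM in P1 Lin28a and 252 FPKM in P1 control. By any amount 6 of 6 genes of this group were lower at P3 in Lin28a (median -0.51) and 4 of 6 in control (median -0.19), or 6 and 5 of 6 with upper quartile scaling.

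The other folding genes split by enzyme. P4hb (NM_011032), a disulfide isomerase that is also a subunit of prolyl 4-hydroxylase, was at 261 FPKM in P3 Lin28a, 293 FPKM in P3 control, 184 FPKM in P1 Lin28a and 193 FPKM in P1 control, with passage ratios of 0.50 in Lin28a and 0.60 in control. Pdia6 (NM_027959) was at 96.5 FPKM in P3 Lin28a, 103 FPKM in P3 control, 121 FPKM in P1 Lin28a and 115 FPKM in P1 control, with -0.33 and -0.16. P4hb was thus higher and Pdia6 lower at P3 in both cultures. Pdia4 had -0.32 in Lin28a and -0.06 in control and Pdia3, the isomerase that works with the lectins, had -0.11 and 0.04. Of the lectins themselves, which hold glycoproteins during folding, the membrane-bound Canx had 0.27 and 0.45 and the soluble Calr had -0.16 and 0.23.

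**Figure D2:**
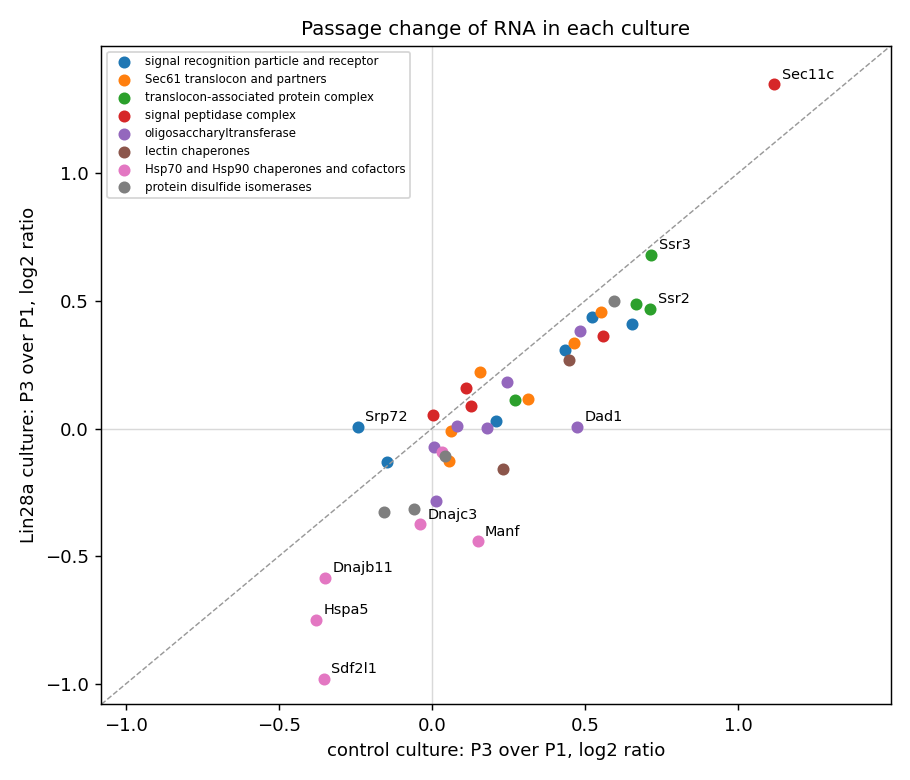
Log2 ratio of P3 over P1 in the Lin28a culture (vertical) against the control culture (horizontal), 1 point per gene, coloured by role group, with a dashed line where both are equal. Sec11c stands at the upper right, and Hspa5, Sdf2l1 and Dnajb11 stand at the lower left, below the line.

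Across the 40 genes the passage ratios of the 2 cultures, which share no library, correlated at a Pearson r of 0.906, a description over genes that share the same libraries. The ratios were nonetheless shifted between the cultures. The passage ratio of Lin28a minus that of control was below 0 for 34 of 40 genes (50.4% of all 13138 genes), with a median of -0.15 against 0.00 for all genes. Past 1.5-fold 2 of the 40 were lower, Sdf2l1 at -0.63 and Manf at -0.59, and 0 were higher, where 4.86% of all genes were lower and 6.10% higher. Srp72 had the most positive value of the 40, at 0.25. The count of 2 became 0 with a pseudocount of 5 or with upper quartile scaling.

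At P1 the ER genes of the Lin28a culture lay near those of control. Of 40 genes 0 were higher or lower past 1.5-fold, where 0.613% of 12564 genes were higher and 0.963% lower. By any amount 30 of 40 were lower (51.6% of all genes), with a median of -0.04 against -0.01 for all genes, and the lower and upper quartiles of the 40 were -0.10 and -0.01. The ratios ran from -0.28 for Sec11c, -0.23 for Srp14 and -0.22 for Srpr to 0.07 for Pdia6, 0.08 for Srp68 and 0.12 for Srp9. Srp9 (NM_012058) was at 34.1 FPKM in P1 Lin28a and 31.3 FPKM in P1 control, and at 34.8 FPKM in P3 Lin28a and 36.3 FPKM in P3 control. Srpr (NM_026130) was at 32.6 FPKM in P1 Lin28a and 38.0 FPKM in P1 control, and at 29.7 FPKM in P3 Lin28a and 34.3 FPKM in P3 control. Srpr was thus among the 27 of 40 genes that were lower with Lin28a at both passages by any amount, and Srp9 was not. The share of all genes lower at both passages was not counted. How much such values vary between cultures of 1 kind was not measured.

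At P3 nearly all 40 genes were lower in Lin28a than in control, each by a small amount. By any amount 37 of 40 were lower (51.5% of all 12716 genes), with a median of -0.20 against -0.01 for all genes. Past 1.5-fold the counts were 0 higher and 0 lower, where 5.45% of all genes were higher and 6.35% lower, so no single gene stood out by that measure. With upper quartile scaling 32 of the 40 were below 0 and 8 above it, with a median of -0.15 against 0.04 for all genes. The summed level of the 40 genes was 3915 FPKM in P3 Lin28a and 4591 FPKM in P3 control, or 0.742% of all summed values in P3 Lin28a and 0.803% in P3 control. The share was 0.818% in P1 Lin28a and 0.838% in P1 control, and 0.651% in Lin28a polysomes and 0.666% in control polysomes.

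Of the folding genes 12 of 12 were below 0 (median -0.28), and of the translocation and modification genes 25 of 28 were (median -0.19). Both sets reached from near 0 to the low end of the list, their middle ranges overlapped, and the difference between them was not tested. Sdf2l1 had -0.57, Manf had -0.54, Dnajc3 had -0.51, Calr had -0.43 and Hspa5 had -0.38, while Hsp90b1 and Pdia6 had -0.16 and -0.10. In the translocation and modification genes Dad1 had -0.46, Ssr4 -0.37, Rpn1 -0.35, Tram1 -0.34 and Ostc -0.33. The 3 genes above 0 were Srp72 at 0.22, Sec11a at 0.04 and Sec63 at 0.03. The glial marker sums given above were lower in P3 Lin28a as well, and the neuron and ventral midbrain marker sums were higher.

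The medians of other lists lay nearer 0. In P3 RNA 29 of 44 other translocation and folding genes were lower in Lin28a (median -0.13), led by the ER prolyl isomerases Fkbp10 at -0.61 and Fkbp2 at -0.58. Of 26 genes of ER-to-Golgi transport 18 were lower (median -0.08), with the coat subunit Sec13 at -0.67 and the cargo receptor Tmed3 at -0.63. Of 33 genes of the unfolded protein response and ER-associated degradation 21 were lower (median -0.07), but this list held its largest ratio in the other direction. Chac1, a target of the stress factor Atf4, was at 3.05 FPKM in P3 Lin28a, 0.445 FPKM in P3 control, 7.98 FPKM in P1 Lin28a and 4.60 FPKM in P1 control, with a ratio of 1.49 at P3. Of 32 cytosolic and mitochondrial chaperones 15 were lower and 17 higher (median 0.05). With upper quartile scaling the counts lower in Lin28a were 24 of 44, 14 of 26, 17 of 33 and 11 of 32 in the order of these lists. Whether these lists differ from each other was not tested.

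With passage most chaperones outside the ER were lower. At P3 26 of 32 were lower in Lin28a (median -0.42) and 24 of 32 in control (median -0.34). Hsph1 led with -1.20 in Lin28a and -1.37 in control, and Hsp90aa1 had -0.98 and -0.94. ER-to-Golgi transport genes were higher at P3 in 18 of 26 cases in Lin28a (median 0.20) and in 20 of 26 in control (median 0.16; with upper quartile scaling 16 of 26 and 0.05), with the retrieval receptor Kdelr3 at 1.71 and 1.63. The unfolded protein response list was near 0 in both (medians 0.02 and 0.03, or -0.02 and -0.08 with upper quartile scaling), with Chac1 at -1.15 and -1.96, and Edem2, which helps discard misfolded glycoproteins, at 1.57 and 1.59. Other translocation and folding genes were higher in 24 of 44 cases in Lin28a and in 29 of 44 in control (median 0.19; with upper quartile scaling 24 of 44 and 0.08), led by the disulfide oxidase Ero1l at 1.80 and 1.29.

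In polysome RNA at P3 the 40 genes lay with all other genes. By any amount 27 of 40 were higher in Lin28a than in control (62.8% of all 12289 genes), with a median of 0.07 against 0.06 for all genes. Past 1.5-fold 0 were higher and 0 lower, where 3.69% of all genes were higher and 1.51% lower. With the median of all genes removed, or with upper quartile scaling, 20 of 40 were above 0. Polysome values are read as RPKM, the same kind of scale with single reads in place of fragments.

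A subunit of signal peptidase, a subunit of oligosaccharyltransferase and a chaperone cofactor held the highest polysome ratios. Other subunits of both enzymes lay near or below 0, such as Sec11c at -0.12 and Rpn2 at -0.01. Sec11a was at 24.3 RPKM in Lin28a polysomes and 17.2 RPKM in control polysomes, with the highest ratio of the 40 at 0.48. Dad1 was at 65.1 RPKM in Lin28a polysomes and 48.0 RPKM in control polysomes (0.43), and Sdf2l1 was at 12.2 RPKM in Lin28a polysomes and 9.26 RPKM in control polysomes (0.37). Dad1 and Sdf2l1 were lower with Lin28a in RNA, so the assays went opposite ways for them. Dnajc3 was lowest at -0.21, with 9.97 RPKM in Lin28a polysomes and 11.7 RPKM in control polysomes. Srp19 and P4hb both had -0.15, with Srp19 at 50.8 RPKM in Lin28a polysomes and 56.3 RPKM in control polysomes, and P4hb at 118 RPKM in Lin28a polysomes and 130.3 RPKM in control polysomes.

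Within the role groups the polysome values of Lin28a and control mostly lay close together. In the signal recognition particle Srp9 was at 16.4 RPKM in Lin28a polysomes and 12.9 RPKM in control polysomes, and Srp14 was at 134 RPKM in Lin28a polysomes and 123 RPKM in control polysomes. Srp68 was at 19.9 RPKM in Lin28a polysomes and 19.1 RPKM in control polysomes, and the receptor gene Srpr was at 9.81 RPKM in Lin28a polysomes and 10.3 RPKM in control polysomes. Srp9 thus had the largest ratio of the particle, at 0.32. Beside the channel, Sec63 was at 14.7 RPKM in Lin28a polysomes and 13.6 RPKM in control polysomes. Ssr3, the most abundant of the 40 genes in both polysome libraries, was at 148 RPKM in Lin28a polysomes and 144 RPKM in control polysomes, and Ssr2 was at 41.6 RPKM in Lin28a polysomes and 36.0 RPKM in control polysomes. Sec11c, the gene with the largest passage difference, was at 31.998 RPKM in Lin28a polysomes and 34.7 RPKM in control polysomes, so unlike Sec11a it was not higher with Lin28a. Spcs1 was at 99.9 RPKM in Lin28a polysomes and 94.9 RPKM in control polysomes, and Rpn2 was at 55.1 RPKM in Lin28a polysomes and 55.5 RPKM in control polysomes.

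Among the folding genes Calr was at 79.9 RPKM in Lin28a polysomes and 73.0 RPKM in control polysomes, and Hsp90b1 was at 96.3 RPKM in Lin28a polysomes and 91.2 RPKM in control polysomes. Manf was at 50.1 RPKM in Lin28a polysomes and 49.4 RPKM in control polysomes, although it was the second lowest of the 40 in the RNA comparison at P3. Dnajb11 was at 17.2 RPKM in Lin28a polysomes and 16.2 RPKM in control polysomes, and Pdia6 was at 28.8 RPKM in Lin28a polysomes and 25.02 RPKM in control polysomes. By any amount 9 of the 12 folding genes were higher with Lin28a in polysomes (median 0.08), where 62.8% of all genes were, and with median centring or upper quartile scaling 7 of 12 were. In P3 RNA 0 of the 12 were higher.

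**Figure D3:**
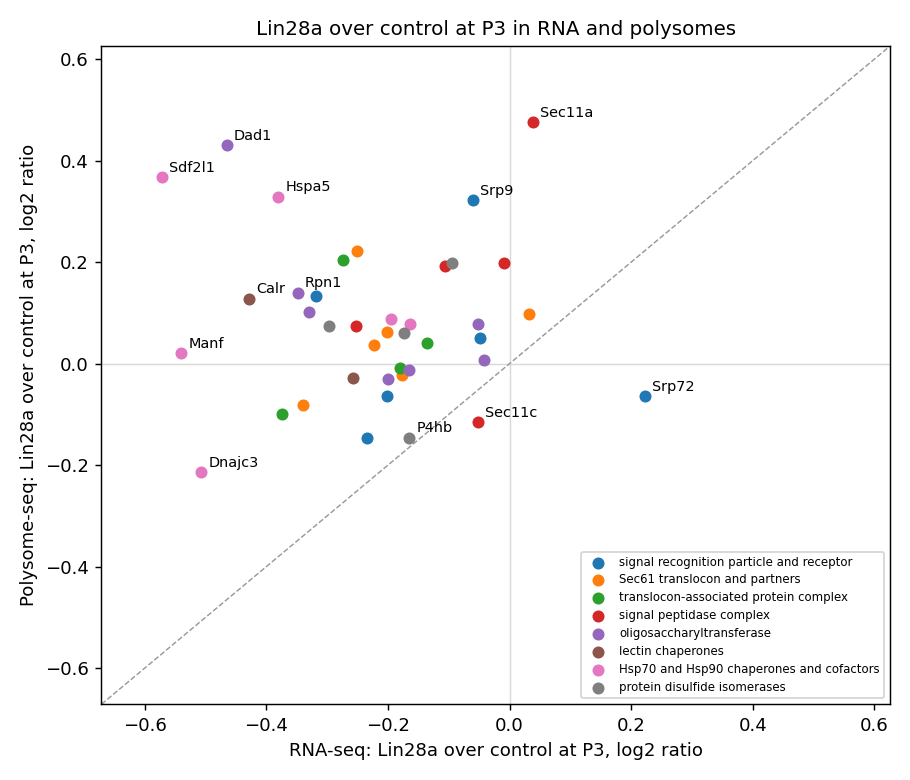
Log2 ratio of Lin28a over control at P3 in polysome-seq (vertical) against RNA-seq (horizontal), 1 point per gene, coloured by role group, with a dashed line where both are equal. Of the 40 points 37 lie left of 0 in RNA, and Sdf2l1, Dad1 and Hspa5 lie farthest above the line.

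The polysome to RNA ratio of the ER genes was therefore higher in Lin28a than in control for nearly all of them. This ratio change is the polysome log2 ratio minus the RNA log2 ratio at P3, for genes with a value of 5 or more in each of the 4 P3 libraries, which 39 of the 40 genes and 7817 genes in all passed. Sec61g did not, with 4.37 RPKM in Lin28a polysomes and 4.23 RPKM in control polysomes. The change was above 0 for 37 of 39 genes (60.7% of all genes), with a median of 0.26 against 0.07 for all genes. Past 1.5-fold 3 of 39 were higher and 0 lower, where 4.46% of all genes were higher and 1.60% lower, so 3 of 39 is a share near the background.

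The 3 genes were Sdf2l1 at 0.94, Dad1 at 0.90 and Hspa5 at 0.71, and Hspa5 had 62.0 RPKM in Lin28a polysomes and 49.2 RPKM in control polysomes. By role group the medians were 0.43 for the Hsp70 and Hsp90 chaperones and cofactors, 0.39 for the 2 lectins, 0.30 for signal peptidase, 0.26 for the disulfide isomerases, 0.26 for the Sec61 group, 0.22 for the translocon-associated complex, 0.17 for oligosaccharyltransferase and 0.12 for the signal recognition particle. With upper quartile scaling these medians were lower and in another order, at 0.27 for the lectins, 0.18 for signal peptidase, 0.17 for 5 of the Hsp70 and Hsp90 group without Sdf2l1, 0.15 for the isomerases, 0.14 for the Sec61 group with Sec61g, 0.10 for the translocon-associated complex, 0.05 for oligosaccharyltransferase and 0.00 for the signal recognition particle, of which 3 of 6 were above 0. Without that scaling the 2 genes below 0 were Srp72 at -0.29 and Sec11c at -0.06, followed by P4hb at 0.02. Srp72 was at 25.5 RPKM in Lin28a polysomes and 26.7 RPKM in control polysomes. The P3 RNA libraries enter both this result and the RNA comparison, in which the median of the 40 was -0.20, and the polysome libraries enter both this result and the polysome comparison, in which it was 0.07.

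The median of the 40 stayed above that of all genes under the other scalings. With the median of all genes removed, 34 of 39 were above 0, and with upper quartile scaling 32 of 39 were, with a median of 0.14 against -0.03 for all genes, in a set that Sec61g entered and Sdf2l1 did not. Among genes at 20 or more in all 4 libraries, 27 of 29 were above 0 with a median of 0.26, and the median of all 2453 such genes was 0.13. Beside the 40, 28 of 34 other translocation and folding genes were above 0 (median 0.31), 20 of 25 genes of ER-to-Golgi transport (median 0.17), 19 of 28 of the unfolded protein response list (median 0.08) and 18 of 30 cytosolic and mitochondrial chaperones (median 0.05). With upper quartile scaling the same lists had 26 of 36, 13 of 26, 14 of 30 and 13 of 31 above 0. In these lists Sec13 had 0.80, the retrieval receptor Kdelr2 had 0.74, Dnajb9 had 0.66 and Ero1l had -0.72.

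The assays differed in the RNA they held. The myelin gene Mbp was at 408 FPKM in P3 Lin28a RNA and 633 FPKM in P3 control RNA, but at 1.83 RPKM in Lin28a polysomes and 1.51 RPKM in control polysomes. Mbp was not typical of its list, in which Olig1 was highest in polysomes, at 121 RPKM in Lin28a and 172 RPKM in control. The astrocyte marker sum was 199 RPKM in Lin28a polysomes and 275 RPKM in control polysomes, far under its RNA-seq sums. The neuron marker sum, 182 and 118 RPKM in the same order, was also under its P3 RNA-seq sums. The ventral midbrain and floor plate sum went the other way, at 172 RPKM in Lin28a polysomes and 90.9 RPKM in control polysomes, against 117 and 70.3 FPKM in P3 RNA. Rmrp, an RNA without a poly(A) tail, was, in libraries that the labels call poly(A)-selected, at 14748 RPKM in Lin28a polysomes and 8850 RPKM in control polysomes, and at the floor in P3 Lin28a RNA and 0.954 FPKM in P3 control RNA. The part of these differences in the ratio change of the ER genes was not tested.

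Levels in the 2 assays are set side by side as values only. The 40 genes had a median of 40.8 RPKM in Lin28a polysomes and 37.2 RPKM in control polysomes, against the RNA-seq medians at P3 given above. Sec61g stood apart in both cultures, above percentile 75 in RNA-seq and at the 23.1 percentile of Lin28a polysomes and the 23.4 percentile of control polysomes, among genes at 1 or more. Its RNA value was 37.0 times its polysome value in Lin28a and 44.6 times in control, where the next largest of the 40 was Calr, at 4.12 times in Lin28a and 6.06 times in control. Only Sdf2l1, Manf, Tram1 and Srp14 were at a higher value in polysomes than in RNA in Lin28a, and the first 3 of them were in control. The log2 gap between polysome and RNA values correlated between the cultures across the 40 genes at a Pearson r of 0.967, a description over genes that share these libraries.

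**Figure D4:**
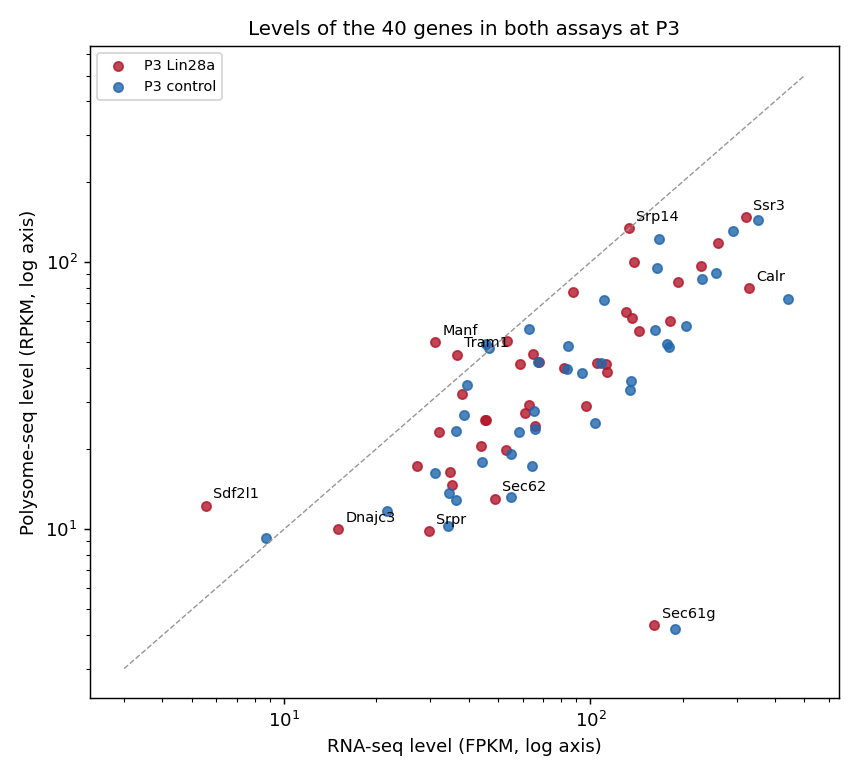
Polysome-seq level in RPKM against RNA-seq level in FPKM at P3 for the 40 genes, both on log axes, with red for Lin28a and blue for control and a dashed line where the values are equal. Sec61g lies far below the other genes in both cultures, and Sdf2l1, Manf and Tram1 lie on or above the line.

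**Figure D5:**
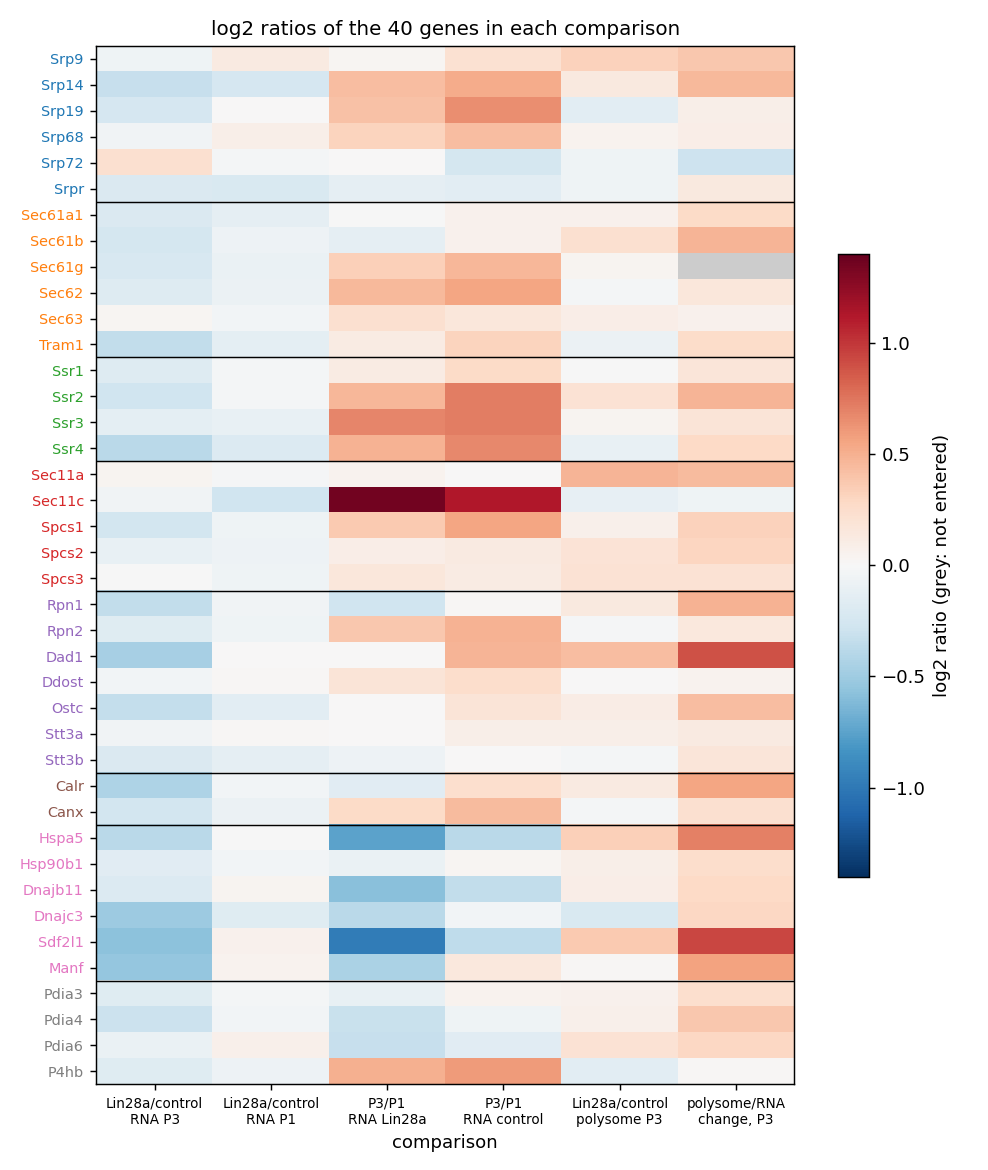
Log2 ratios of the 40 genes, grouped by role, in the 6 comparisons, from blue (lower in the first-named library) to red (higher), with grey for Sec61g in the ratio change. The column of Lin28a over control in P3 RNA is blue for 37 of 40 genes, and the polysome to RNA column is red for 37 of 39.

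Some values have limits of their own. In the reference annotation 15 of the 40 genes overlap another annotated gene, among them Hspa5 with Rabepk, Spcs1 with Glt8d1 and Pdia3 with Catsper2, and whether the counting used strand is not given in the sources used here.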

How the data were processed

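RNA-seq libraries of Lin28a and control at P3 and P1, and polysome-seq libraries of Lin28a and control at P3, were read at 1 value per RefSeq gene for 17919 genes. The RNA-seq values were deposited by the authors as normalized values read here as FPKM, and the polysome values were deposited in the same layout and are read as RPKM, since neither file header names its unit. Bowtie 1.0.0, TopHat2 2.0.6, Cufflinks 2.1.1 and build mm9 are named per the submitters' processing notes, without a step. Genes without an estimate are listed at a floor of 4.8e-07 in RNA-seq and of 0.00331 and 0.00204 in Lin28a and control polysome-seq. Total depth is unknown. Steps between low values gave the Lin28a polysome library 1.04 times the depth of its control (221 of 1613 low genes at that ratio). They gave the P3 Lin28a, P3 control and P1 Lin28a RNA-seq libraries 1.03, 1.01 and 1.15 times the depth of P1 control. These rest on 101 of 1256, 58 of 1191 and 177 of 1604 low genes in the same order, so they are rough. Per-sample columns of other samples numbered 0, and the small RNA files were not used.

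Log2 ratios used a pseudocount of 1, a minimum of 1 in at least 1 library, and a minimum of 5 in all 4 libraries for the polysome to RNA ratio. With 1 library per group there was no test. Calls are past 1.5-fold. The calculation was run on simulated data with 2-fold changes and little noise. That run checks the arithmetic alone, since it holds no variation between cultures. Values in every library are given for genes past 2-fold, for the 3 highest and 3 lowest of each comparison and for the highest of each role group, and up to 4 genes of each other list were named by size of ratio. A few further genes were named after their values were seen. The genes, lists and thresholds were chosen with earlier results of these data known. Promoter windows came from RefSeq (GRCm38.p6). A planned comparison with protein length was not made. Alternatives were pseudocounts of 0.1 and 5, no filter, median centring, upper quartile scaling, a 2-fold threshold and a minimum of 20. Python 3.11.15, numpy 2.4.6, pandas 2.3.3 and matplotlib 3.10.9 were used.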

Additional observations from a re-analysis of the deposited data

Results flagged for a closer look

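Differences that pointed opposite ways in the 2 passages or the 2 cultures, by more than 1.5-fold between them, were found for Sdf2l1 and Manf. For Lin28a over control in RNA, Sdf2l1 had a log2 ratio of -0.57 at P3 and 0.06 at P1, and Manf had -0.54 at P3 and 0.05 at P1. For P3 over P1 in RNA, Manf had -0.44 in Lin28a and 0.15 in control. Both Manf results are the same contrast of the same libraries, -0.59, which is also its difference of passage ratios given above. That difference became -0.42 for Sdf2l1 and -0.54 for Manf with a pseudocount of 5. Under upper quartile scaling it was -0.56 and -0.53, so neither gene was past 1.5-fold in these settings. Both stayed past it with a pseudocount of 0.1, no filter or median centring. With 1 library per group these differences were not tested.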

How the results depend on the processing

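No paired analysis was possible because each group held 1 library and the labels give no replicate numbers, and no library could be left out. Of 158 list medians and counts recomputed, 146 kept within 0.1 (medians, log2) or 1.5 times (counts) of the value reported, and 12 did not. The limit of 0.1 was wider than some medians themselves, such as 0.04 for passage in Lin28a and -0.04 for Lin28a over control in P1 RNA. A median could thus change sign and be counted as kept, and so were counts of 0 that stayed 0. Of 76 recomputed ratios of single genes past 1.5-fold, 61 kept within 0.1 and 15 did not. With upper quartile scaling the passage median in control was 0.060 with 3 genes higher past 1.5-fold, the ratio change had a median of 0.14, 8 genes were above 0 for Lin28a over control in P3 RNA, and 0 were lower in the difference of passage ratios. That scaling moved the median of all genes by more than 0.1 in the passage comparison of control, to -0.10, and in the ratio change, to -0.03. A pseudocount of 0.1 put 1 gene, Sdf2l1, lower past 1.5-fold for Lin28a over control in P3 RNA, and a pseudocount of 5 left 0 lower in the difference of passage ratios. Past 2-fold 1 gene was higher with passage in control, 1 was higher and 0 lower with passage in Lin28a, and 0 were higher in the ratio change or lower in the difference of passage ratios. These 2-fold counts used the pseudocount of 1. Sdf2l1, with -0.98 for passage in Lin28a and 0.94 for the ratio change, lay just short of 2-fold with it. No gene past 1.5-fold changed sign under the settings run. A 2-fold threshold can only lower a count of genes past a fold, and the causes of the other moves were not tested. The counts by any amount, the difference of passage ratios and the counts by role group under other scalings were added after seeing the data.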
